A study of Mus musculus with 26 samples.

Results

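The genes examined are 31 genes that carry glucose into cells, convert it to pyruvate and move lactate across the plasma membrane. They were chosen by symbol, and all 31 were found among the 50686 genes in the count data. They comprise 3 glucose transporters, the enzymes of glycolysis with their isoforms, 4 bifunctional enzymes that set the level of a phosphofructokinase activator, 2 fructose bisphosphatases and 2 lactate transporters. Of these, 29 were abundant enough to be tested, and Hkdc1 and Fbp1 were not. Brown adipose tissue (BAT) was taken from 26 male C57BL/6J mice. The mice labelled FAKO, the fat-specific Afadin knockout, carried a floxed Mllt4 gene (Afdn, which encodes Afadin). Their Cre was driven by the Adiponectin promoter, so that white fat was targeted as well. Controls were littermates with WT in the sample label, and their genotype is not stated further in the sources used here. All mice, aged 12 to 16 weeks, had first spent 14 to 18 days at thermoneutrality, given as 29 °C in the study's methods and as 30 °C in the sample labels. At 29 °C there were 7 control mice and 7 labelled FAKO. The cold groups were moved to 5 °C for 6 h and held 5 control mice and 7 labelled FAKO.

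Glycolysis splits glucose into pyruvate in the cytosol. Hexokinases trap glucose by phosphorylation, phosphofructokinase commits it to breakdown, and pyruvate kinase closes the pathway, while triose phosphates can leave it for the glycerol backbone of triglycerides. Brown adipocytes take up much glucose when noradrenaline activates them, through both GLUT1 and the insulin-regulated GLUT4, and they export lactate. Most steps are served by several genes, and some isoforms (Eno3, Pgam2 and Pfkm) are those of mature skeletal muscle fibres.

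Total counts per mouse ranged from 12705969 to 25732258. Levels are given as CPM (counts scaled to a fixed library total), scaled between libraries by TMM factors, as mean ± SD over the mice of a group (n = 7, or n = 5 for control mice at 5 °C), and levels of different genes are compared only as CPM per kb of the principal transcript. Afdn was at 196 ± 21.0 CPM in control mice and 195 ± 27.4 CPM in mice labelled FAKO at 29 °C, a log2 difference of -0.01 (SE 0.08, edgeR adjusted p = 0.992), and at 73.5 ± 4.27 and 58.5 ± 4.15 CPM at 5 °C. Because it was not lower in the libraries labelled FAKO at 29 °C, these groups are named by their labels. At 5 °C its mean was lower with that label, by more than the SD of either group. In both genotypes its mean was also lower at 5 °C than at 29 °C. The paper reports a smaller increase of Afadin protein with cold in BAT of FAKO mice. It also measured Mllt4 mRNA by RT-qPCR and, at thermoneutrality, Afadin protein by blot in BAT of both genotypes. Those values are in its figures and were not compared here, and these counts do not measure protein. Ucp1, the uncoupling protein of brown adipocytes, was detected in every mouse and rose with cold, from 985 ± 234 to 16005 ± 552 CPM in control mice. Skeletal muscle markers varied widely between mice of the same group, and the summed level of the 20 markers ran from 64.0 to 14912 CPM in control mice and 60.3 to 4192 CPM in mice labelled FAKO at 29 °C, and from 83.8 to 15233 and 61.2 to 19572 CPM at 5 °C. Of these 20 genes, Des rose with cold in both genotypes and 19 did not pass the test in either. With cold, the numbers of markers higher and lower were 4 and 3 of 10 tested brown adipocyte markers in control mice and 5 and 4 in mice labelled FAKO, 4 and 3 of 10 tested macrophage markers in control mice and 6 and 2 in mice labelled FAKO, 0 and 6 of 10 tested lymphocyte markers in control mice and 0 and 2 in mice labelled FAKO and 6 and 4 of 10 tested endothelial markers in control mice and 5 and 3 in mice labelled FAKO. Beside these counts, 31.6% of all tested genes were higher and 33.4% lower in control mice, and 33.7% and 34.9% in mice labelled FAKO. In bulk tissue, fewer cells of a type cannot be told apart from less RNA per cell.

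After cold, transcripts of GLUT1 (Slc2a1), both main hexokinases (Hk1 and Hk2), the platelet phosphofructokinase (Pfkp), aldolase (Aldoa), phosphoglycerate kinase (Pgk1) and both lactate transporters (Slc16a1 and Slc16a3) were higher in both genotypes, and those of GLUT4 (Slc2a4), Pfkfb1, Pfkfb2 and Eno2 were lower. In control mice, 12 of the 29 tested genes rose and 5 fell after 6 h at 5 °C. The share of all 17286 tested genes that passed the same test (edgeR's quasi-likelihood test, Benjamini-Hochberg adjusted p below 0.05) was 65.0%, with 31.6% higher and 33.4% lower. In mice labelled FAKO, 20 rose and 5 fell, and 68.6% of all genes passed, 33.7% of all being higher and 34.9% lower. The median log2 fold change of the 29 genes was 0.29 in control mice and 0.57 in mice labelled FAKO, beside -0.01 and -0.03 over all genes. The mice of both temperatures did not overlap for 9 genes that were higher and 3 that were lower in control mice (23.5% and 22.9% of all genes) and for 12 and 3 in mice labelled FAKO (21.1% and 19.3%). In both genotypes 12 genes rose and 4 fell, Fbp2 fell in control mice and rose in mice labelled FAKO, and 4 genes (Pfkm, Pfkfb3, Pgam2 and Eno3) passed in neither.

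**Figure D1:**
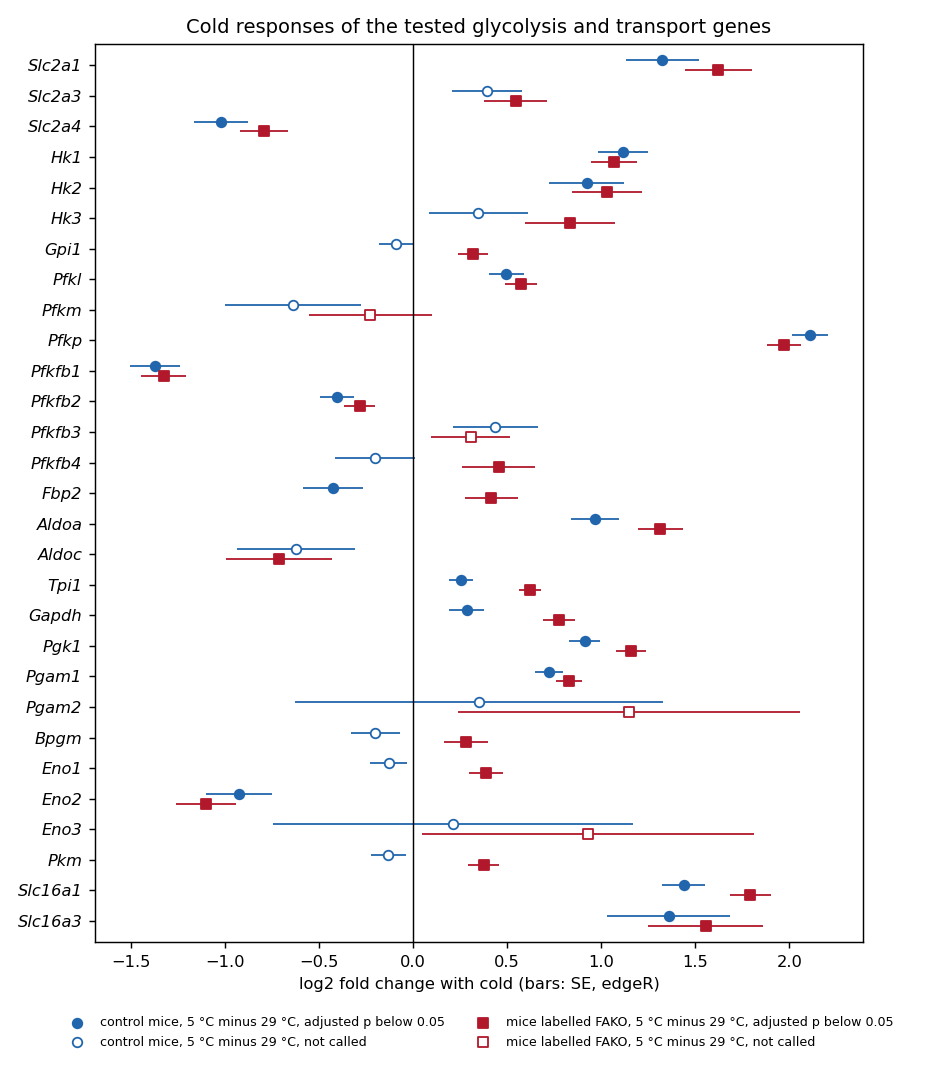
Log2 fold change with cold (x axis) of the 29 tested genes (rows), with bars for the SE, in control mice (circles) and in mice labelled FAKO (squares). Filled symbols passed the test: Pfkp lay farthest to the right in both genotypes (2.11 and 1.97), Pfkfb1 farthest to the left (-1.37 and -1.33), and Fbp2 had a filled symbol on each side of 0.

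Scaling by library size alone, in place of TMM, lowered the median log2 fold change of all genes to -0.14 in control mice and -0.34 in mice labelled FAKO. Under it, 40.0% and 27.8% of the calls over all genes were rises, beside 48.6% and 49.1% with TMM. Of the 29 genes, 10 rose in control mice and 12 in mice labelled FAKO, and the rises lost are named beside each gene below.

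The glucose transporters moved in opposite directions. Slc2a4 encodes GLUT4, the carrier that insulin brings to the surface of fat and muscle cells. The 7 control mice at 29 °C ranged from 303 to 447 (median 365) CPM. After cold, the values in the 5 control mice were 209.8, 190.5, 156, 195 and 162 CPM. Mice labelled FAKO ranged from 315 to 361 (median 348) CPM at 29 °C and from 114 to 271 (median 197) CPM at 5 °C. All cold mice were below all mice at 29 °C of their genotype, and the log2 fold changes were -1.02 (SE 0.14, edgeR adjusted p = 6.47e-07) and -0.79 (SE 0.13, edgeR adjusted p = 4.81e-06). Slc2a1 encodes GLUT1, the carrier of basal uptake in most tissues. It went from 6.06 ± 0.878 to 15.2 ± 2.86 CPM in control mice, whose 5 cold mice had 13.2, 19.0, 13.1, 13.1 and 17.6 CPM, and from 6.04 ± 0.372 to 18.6 ± 8.37 CPM in mice labelled FAKO. Again the temperatures did not overlap, in the other direction, with log2 fold changes of 1.33 (SE 0.19, edgeR adjusted p = 1.12e-06) and 1.62 (SE 0.18, edgeR adjusted p = 9.62e-09). Slc2a3, which encodes the high-affinity carrier GLUT3 of neurons and blood cells, rose in mice labelled FAKO, by 0.55 (SE 0.17, edgeR adjusted p = 0.00573), where it lost the call with library size alone (adjusted p = 0.34) and without the mice with Ckm above 100 CPM (adjusted p = 0.0958). Its value in control mice was 0.39 (SE 0.19, edgeR adjusted p = 0.0641), and it was called there without mouse 7 (adjusted p = 0.0214). Per kb, Slc2a4 held a median of 98.2% (97.3 to 98.6%) of the summed level of the 3 carriers in control mice at 29 °C and 92.1% (90.3 to 93.6%) after cold, with the range over mice in parentheses, so Slc2a4 was the most abundant of the 3 transcripts at both temperatures. The share of Slc2a1 went from 1.07% (0.898 to 1.75%) to 5.99% (4.57 to 7.58%).

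Of the hexokinases, Hk2 (the insulin-responsive enzyme of muscle and fat) and Hk1 (the enzyme of most tissues) rose to a similar extent. Hk2 ranged from 239 to 709 (median 382) CPM in control mice at 29 °C, and the 5 cold control mice had 893, 809, 687, 664 and 674 CPM. The highest mouse at 29 °C lay within the range of the cold mice, and the log2 fold changes were 0.92 (SE 0.20, edgeR adjusted p = 0.000239) and, in mice labelled FAKO, 1.03 (SE 0.19, edgeR adjusted p = 2.35e-05). Hk1 went from 22.5 ± 1.25 to 48.7 ± 11.3 CPM and from 22.8 ± 4.61 to 47.8 ± 7.34 CPM, with no overlap in either genotype. Its log2 fold changes were 1.12 (SE 0.13, edgeR adjusted p = 2.90e-08) and 1.07 (SE 0.12, edgeR adjusted p = 1.49e-08). Per kb, Hk2 held 91.8% (86.8 to 95.5%) of hexokinase transcripts in control mice at 29 °C and 91.8% (89.1 to 92.2%) at 5 °C. Hk3, a hexokinase of white blood cells, passed the test in mice labelled FAKO, at 0.84 (SE 0.24, edgeR adjusted p = 0.00315) beside 0.35 (SE 0.26, edgeR adjusted p = 0.251) in control mice, and the test of the difference gave 0.49 (SE 0.36, edgeR adjusted p = 0.528). The Hk3 call was lost with library size alone (adjusted p = 0.0837). Of the 10 neutrophil markers on the list 6 were tested, and 5 were higher and 1 lower with cold in mice labelled FAKO. In control mice, where Hk3 was not called, 4 were higher and 1 lower. Their summed level ran from 1.75 to 4.24 CPM at 29 °C to a range of 5.14 to 64.8 CPM at 5 °C in mice labelled FAKO, with Ly6g at 0 in every mouse at 29 °C, and their part in the result was not tested. Hkdc1 had no count in 21 of the 26 mice and was at most 0.112 CPM.

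The largest cold response of the 29 genes was that of Pfkp. Pfkp (ENSMUSG00000021196.13, chr13:6579768-6648777, minus strand), with positions in mm10, encodes the platelet-type phosphofructokinase. Control mice at 29 °C ranged from 59.3 to 90.3 (median 74.3) CPM and mice labelled FAKO from 64.6 to 73.7 (median 70.1) CPM. After cold, the 5 control mice had 317, 354, 273, 321 and 320.5 CPM and mice labelled FAKO ranged from 226 to 324 (median 265) CPM. The lowest cold mouse was well above the highest mouse at 29 °C, with log2 fold changes of 2.11 (SE 0.10, edgeR adjusted p = 4.73e-16) and 1.97 (SE 0.09, edgeR adjusted p = 3.93e-16). The end of Pfkp overlaps Pitrm1 on the opposite strand over 748 bases of exon. Pitrm1 changed by 0.24 and 0.38 on the log2 scale, and whether the counting used strand is not given in the sources used here. Pfkl, the liver-type enzyme, went from 446 ± 42.8 to 629.6 ± 93.6 CPM and from 417 ± 48.8 to 621 ± 57.9 CPM, with log2 fold changes of 0.50 (SE 0.09, edgeR adjusted p = 3.68e-05) and 0.57 (SE 0.09, edgeR adjusted p = 1.30e-06). The make-up of the family differed between temperatures. In control mice the median share of Pfkp went from 10.1% (8.99 to 11.0%) at 29 °C to 27.2% (25.9 to 31.8%) at 5 °C, while Pfkl went from 69.9% (59.8 to 70.7%) to 61.1% (57.7 to 68.0%) and the muscle-type Pfkm from 20.8% (18.8 to 29.4%) to 7.04% (5.49 to 16.4%). In mice labelled FAKO, Pfkp went from 9.98% (9.48 to 11.4%) to 26.4% (19.1 to 30.3%). Pfkl held the largest share in every mouse, with each gene's principal transcript as its length. The size of every share depended on that length, most of all for Pfkp. Its annotated exons span 13401 bases beside 4145 in its principal transcript, against 6675 and 3730 for Pfkl and 3340 and 2879 for Pfkm. For Pfkl the direction of the change depended on it as well. With all annotated exons of a gene as its length, the median share of Pfkl went from 65.3% to 68.2% in control mice. In mice labelled FAKO it then went from 64.4% to 71.2%.

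**Figure D2:**
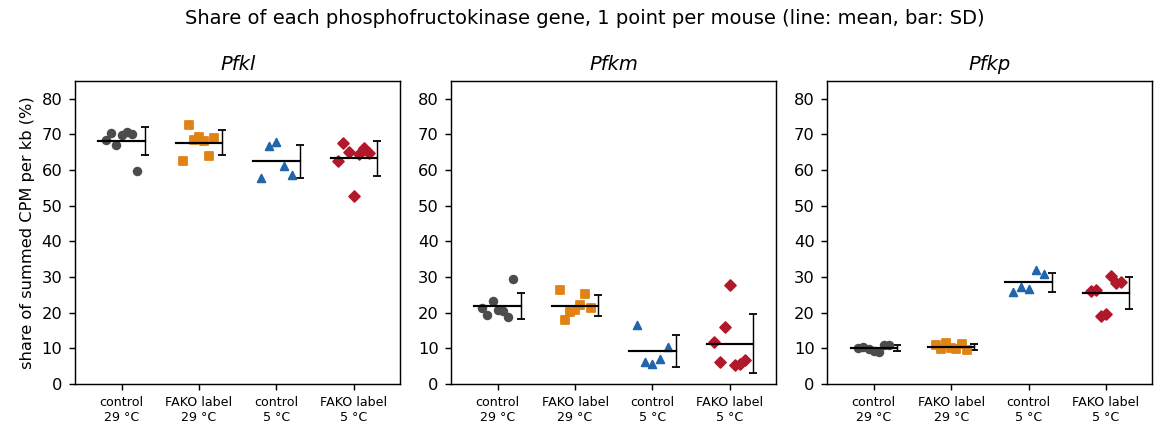
Share (y axis, %) of each phosphofructokinase gene in the summed CPM per kb of the family, with 1 point per mouse, a line for the mean and a bar for the SD in each of the 4 groups (x axis). Pfkp lay between 8.99% and 11.4% in all mice at 29 °C and between 19.1% and 31.8% in all mice at 5 °C, and Pfkm spread from 5.30% to 27.7% in mice labelled FAKO at 5 °C.

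The bifunctional enzymes of the PFKFB family make and break the fructose bisphosphate that activates phosphofructokinase. Pfkfb1, the liver and muscle form, and Pfkfb2, the heart form, fell. Pfkfb1 (ENSMUSG00000025271.13, chrX:150588229-150643878, plus strand) went from a range of 46.3 to 62.4 (median 49.3) CPM in control mice at 29 °C to 21.3, 13.6, 21.5, 19.96 and 21.9 CPM in the 5 cold control mice. Mice labelled FAKO went from 48.8 to 67.2 (median 56.4) to 16.0 to 30.2 (median 20.3) CPM. No cold mouse reached the lowest mouse at 29 °C, and the log2 fold changes were -1.37 (SE 0.13, edgeR adjusted p = 1.08e-09) and -1.33 (SE 0.12, edgeR adjusted p = 1.82e-10). The fall of Pfkfb2 was smaller, from 14.5 ± 1.39 to 10.9 ± 1.39 CPM in control mice, at -0.40 (SE 0.09, edgeR adjusted p = 0.000381), and at -0.28 (SE 0.08, edgeR adjusted p = 0.00366) in mice labelled FAKO. Pfkfb3, the form with the highest kinase activity, was the most abundant at 349 ± 52.9 CPM in control mice at 29 °C and 473 ± 86.1 CPM at 5 °C, and did not pass the test in either genotype, at 0.44 (SE 0.23, edgeR adjusted p = 0.0926) and 0.30 (SE 0.21, edgeR adjusted p = 0.197). The per-kb share of Pfkfb3 in the family went from 70.4% (61.7 to 71.7%) to 85.8% (82.9 to 90.5%) in control mice and from 57.8% (53.6 to 72.5%) to 83.6% (63.7 to 86.8%) in mice labelled FAKO. Pfkfb4 was low, at 7.23 ± 0.577 CPM in mice labelled FAKO at 29 °C and 9.91 ± 2.99 CPM at 5 °C. Its rise there, 0.45 (SE 0.19, edgeR adjusted p = 0.0393), was lost when any of 9 of the 14 mice was left out (mice 8, 9, 10, 12, 13, 14, 22, 24 and 25, adjusted p of 0.0525 to 0.158 in those fits), without the mice with Ckm above 100 CPM (adjusted p = 0.371) and with library size alone (adjusted p = 0.665) and with either other filter on low counts. In control mice Pfkfb4 was at -0.20 (SE 0.21, edgeR adjusted p = 0.417).

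Fructose bisphosphatase runs the phosphofructokinase step in reverse. Fbp2, the muscle form, was the 1 gene of the 29 that passed the test in opposite directions. In control mice it was 6.57, 6.49, 8.47, 8.88, 8.81, 7.94 and 8.49 CPM at 29 °C and 5.93, 4.18, 5.32, 7.17 and 6.91 CPM at 5 °C. In mice labelled FAKO it was 6.72, 6.39, 6.17, 4.72, 6.67, 7.54 and 9.29 CPM at 29 °C and 6.29, 9.25, 10.9, 8.04, 10.7, 7.37 and 10.9 CPM at 5 °C. The temperatures overlapped in both genotypes, and the log2 fold changes were -0.43 (SE 0.16, edgeR adjusted p = 0.0208) and 0.42 (SE 0.14, edgeR adjusted p = 0.0119). The fall in control mice was not called without cold mouse 17 or without cold mouse 18 (adjusted p of 0.0529 to 0.0785 in those fits), and the rise in mice labelled FAKO was not called with library size alone, at 0.09 (SE 0.17, edgeR adjusted p = 0.66). Fbp1, the liver form, was below 1 CPM in every mouse.

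Of the later steps, Aldoa was the most abundant of the 31 genes per kb, at 1169 CPM per kb in control mice at 29 °C, ahead of Pkm at 499 and Eno1 at 274. Aldoa encodes the aldolase of muscle and most other tissues. Control mice ranged from 1336 to 2444 (median 1717) CPM at 29 °C and the cold mice had 3537, 3356, 3114, 3475 and 3788 CPM, while mice labelled FAKO ranged from 1309.8 to 1808 (median 1552) to 3172 to 5059 (median 3723) CPM. There was no overlap, and the log2 fold changes were 0.97 (SE 0.13, edgeR adjusted p = 1.81e-07) and 1.31 (SE 0.12, edgeR adjusted p = 1.84e-10). Aldoc, the brain aldolase, was under 6 CPM in every mouse and fell in mice labelled FAKO, at -0.71 (SE 0.28, edgeR adjusted p = 0.028), beside -0.62 (SE 0.31, edgeR adjusted p = 0.0844) in control mice. That call was lost without mouse 8, 9, 24 or 25 (adjusted p of 0.0553 to 0.0592 in those fits) and without the mice with Ckm above 100 CPM (adjusted p = 0.0777), and a fall in control mice was called without mouse 7 (adjusted p = 0.0147) and without the mice with Ckm above 100 CPM (adjusted p = 0.0106).

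Pgk1, phosphoglycerate kinase, which makes ATP, and Pgam1, the phosphoglycerate mutase of non-muscle tissues, also rose without overlap. Pgk1 went from 84.3 ± 10.4 to 159 ± 9.91 CPM in control mice, whose 5 cold mice had 163, 149, 154, 152 and 174 CPM, and from 74.8 ± 3.91 to 167 ± 21.4 CPM in mice labelled FAKO. The log2 fold changes were 0.91 (SE 0.08, edgeR adjusted p = 3.21e-10) and 1.16 (SE 0.08, edgeR adjusted p = 6.49e-13). Pgam1 went from 37.1 ± 3.69 to 61.2 ± 5.90 CPM and from 33.7 ± 3.69 to 59.9 ± 3.08 CPM, at 0.72 (SE 0.08, edgeR adjusted p = 3.98e-09) and 0.83 (SE 0.07, edgeR adjusted p = 6.02e-11). Tpi1, which interconverts the triose phosphates, rose less, from 328 ± 16.8 to 392 ± 24.5 CPM and from 294 ± 11.5 to 452 ± 50.4 CPM, at 0.26 (SE 0.06, edgeR adjusted p = 0.00103) and 0.62 (SE 0.06, edgeR adjusted p = 5.33e-10). Gapdh, which oxidises glyceraldehyde phosphate, rose by 0.29 (SE 0.09, edgeR adjusted p = 0.00917) and 0.77 (SE 0.09, edgeR adjusted p = 1.01e-08). With library size alone, the rises of Tpi1 and Gapdh in control mice were 0.14 and 0.16 and were not called. Without the mice with Ckm above 100 CPM, that of Tpi1 in control mice was not called either (adjusted p = 0.0726). Gapdh shares at least 200 bases at 95% identity or more with 78 other annotated genes, most of them unnamed copies, and 77 of these are among the counted genes with 5.85% of its counts, so its level is uncertain.

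Gpi1, Eno1 and Pkm, which stand at the top and at the end of the pathway, did not pass the test in control mice and rose in mice labelled FAKO. Gpi1 encodes glucose phosphate isomerase, Eno1 the enolase of most tissues and Pkm pyruvate kinase. In control mice their log2 fold changes were -0.09 (SE 0.09, edgeR adjusted p = 0.374), -0.13 (SE 0.10, edgeR adjusted p = 0.253) and -0.13 (SE 0.09, edgeR adjusted p = 0.21). In mice labelled FAKO they were 0.32 (SE 0.08, edgeR adjusted p = 0.00108), 0.39 (SE 0.09, edgeR adjusted p = 0.000498) and 0.37 (SE 0.08, edgeR adjusted p = 0.000299). With library size alone all 3 calls were lost, at -0.01, 0.07 and 0.06, where the median of all genes was -0.34. Pkm overlaps the unnamed gene Gm49759 on the same strand, which held 17193 counts over all mice beside 529303 for Pkm, and the counts do not separate the splice forms of pyruvate kinase. Eno2, the neuronal enolase, fell from 2.67 ± 0.440 to 1.40 ± 0.215 CPM and from 2.89 ± 0.279 to 1.34 ± 0.408 CPM without overlap, at -0.93 (SE 0.18, edgeR adjusted p = 4.74e-05) and -1.10 (SE 0.16, edgeR adjusted p = 8.53e-07). Nerve and Schwann cell markers moved with it: 5 of 10 were lower with cold in control mice and 6 of 10 in mice labelled FAKO, none was higher, and their summed level went from a range of 173 to 209.8 to 111 to 136 CPM in control mice and from 147 to 194 to 111 to 149 CPM in mice labelled FAKO. Their part in the result was not tested. Bpgm, which makes the bisphosphoglycerate of red blood cells, rose in mice labelled FAKO, at 0.28 (SE 0.12, edgeR adjusted p = 0.0385), and was at -0.20 (SE 0.13, edgeR adjusted p = 0.184) in control mice. Of the 8 tested red blood cell markers, 7 were higher with cold in mice labelled FAKO and 0 in control mice, and their summed level went from 292 to 612 to 519.6 to 1503 CPM and from 235 to 1127 to 419 to 688 CPM. Their part in the rise of Bpgm, which was lost when mouse 9, 10, 12, 13, 14, 23, 26 or 27 was left out (adjusted p of 0.0503 to 0.133 in those fits) and with library size alone (adjusted p = 0.87) and with either other filter on low counts, was not tested.

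The lactate transporters rose in both genotypes. Slc16a1 (ENSMUSG00000032902.1, chr3:104638668-104658462, plus strand) encodes MCT1. Control mice ranged from 271 to 399 (median 328) CPM at 29 °C and the 5 cold mice had 909, 810.3, 1039, 859.98 and 817 CPM. Mice labelled FAKO ranged from 245 to 367 (median 272) CPM to 835 to 1257 (median 967) CPM. All cold mice were above all mice at 29 °C, with log2 fold changes of 1.44 (SE 0.12, edgeR adjusted p = 2.61e-11) and 1.79 (SE 0.11, edgeR adjusted p = 9.22e-14). Slc16a3, which encodes the exporter MCT4 of fast muscle and other strongly glycolytic cells, was far lower per kb, at 1.55 CPM per kb in cold control mice beside 200.4 for Slc16a1. It rose by 1.36 (SE 0.33, edgeR adjusted p = 0.000716) and 1.55 (SE 0.31, edgeR adjusted p = 6.60e-05), and in control mice its highest mouse at 29 °C, at 5.92 CPM, lay within the cold range. Slc16a1 held over 97% of the per-kb level of both carriers in every mouse.

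**Figure D3:**
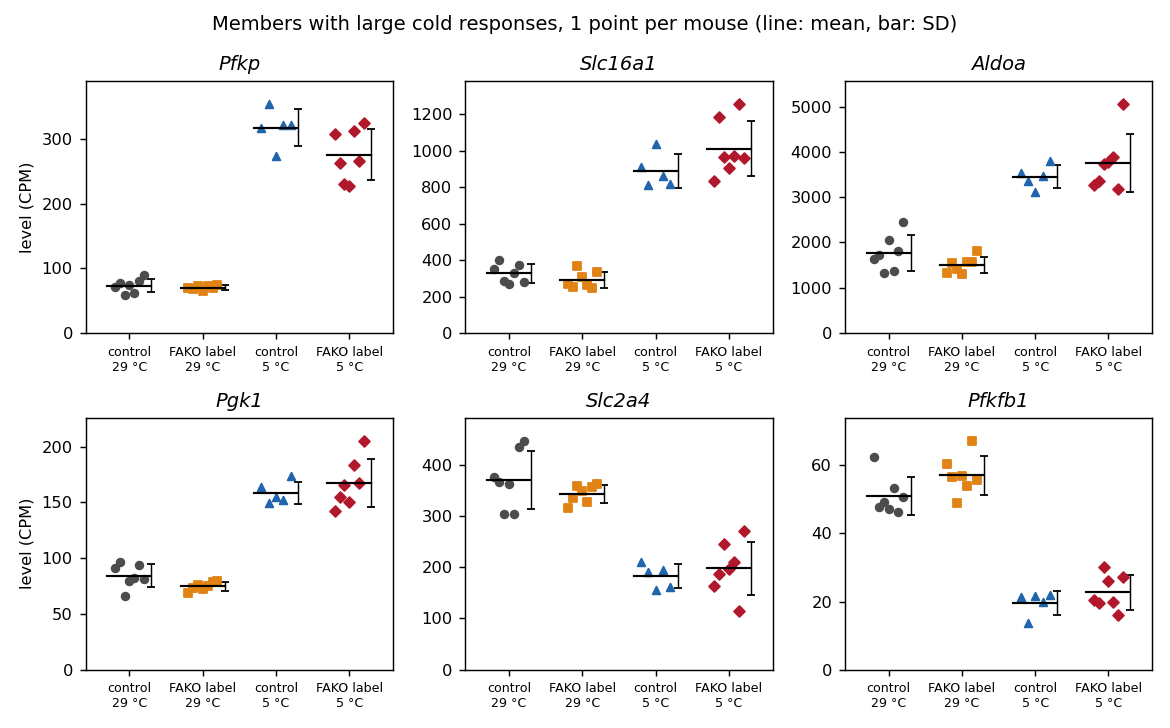
Level (CPM, y axis) of 6 genes with large cold responses in each of the 4 groups (x axis), with 1 point per mouse, a line for the mean and a bar for the SD. For Pfkp, Slc16a1, Aldoa and Pgk1 all cold mice lie above all mice at 29 °C, and for Slc2a4 and Pfkfb1 all lie below.

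The sequences before the start sites of the 2 genes with the largest rises in control mice, Pfkp and Slc16a1, and of the gene with the largest fall, Pfkfb1, are shown because their cold responses were the largest of the 29 genes in each direction. They are the 250 bases upstream of a RefSeq start (GRCm38.p6, 5′ to 3′), the single one listed for Pfkp and for Slc16a1 and, for Pfkfb1, that of 4 listed starts which lies nearest to the annotated gene start, with matches to ACGTG, the core of the hypoxia response element, and to CACGTG, the E-box bound by carbohydrate response factors, in capitals on either strand. CACGTG contains ACGTG on both strands.
Pfkp, chr13:6648772-6649021, minus strand: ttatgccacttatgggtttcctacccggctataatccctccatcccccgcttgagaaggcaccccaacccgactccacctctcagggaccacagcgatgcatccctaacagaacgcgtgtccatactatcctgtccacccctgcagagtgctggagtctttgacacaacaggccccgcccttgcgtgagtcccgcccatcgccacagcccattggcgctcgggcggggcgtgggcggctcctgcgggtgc
Slc16a1, chr3:104638414-104638663, plus strand: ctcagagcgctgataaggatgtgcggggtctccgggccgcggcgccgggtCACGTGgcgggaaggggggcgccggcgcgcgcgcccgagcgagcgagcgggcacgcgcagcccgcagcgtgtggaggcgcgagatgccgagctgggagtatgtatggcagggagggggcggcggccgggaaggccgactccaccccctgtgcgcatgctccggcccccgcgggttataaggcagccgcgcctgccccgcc
Pfkfb1, chrX:150587993-150588242, plus strand: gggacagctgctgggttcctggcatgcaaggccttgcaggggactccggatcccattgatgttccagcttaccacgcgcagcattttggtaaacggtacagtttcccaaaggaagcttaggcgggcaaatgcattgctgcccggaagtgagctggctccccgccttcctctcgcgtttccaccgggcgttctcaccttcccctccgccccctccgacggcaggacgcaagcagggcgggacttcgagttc
The Slc16a1 stretch held a CACGTG, and the Pfkp and Pfkfb1 stretches held neither motif. Over windows of 300 bases (250 before and 50 after each start), 45 promoters of 29 members were found, and Slc2a4 and Slc2a3 were not matched. ACGTG was in 20 of these 45 (44.4%), beside 19.6% of all 32851 promoters. CACGTG was in 5 (11.1%, beside 7.15% of all), and the cyclic AMP response element TGACGTCA was in 0 (1.79% of all). Of the 12 genes that rose in control mice, 9 had ACGTG in at least 1 window (Slc2a1, Hk1, Hk2, Aldoa, Gapdh, Pgk1, Pgam1, Slc16a1 and Slc16a3), as did 2 of the 4 matched genes that fell and 5 of the 11 matched genes that were not called. In mice labelled FAKO these were 12 of 19 matched genes that rose, 2 of 4 that fell and 2 of 4 that were not called. Of all 27025 genes in the promoter table, 21.8% had ACGTG in at least 1 window, and genes with more windows have more chances to hold it. A match is a run of letters and not a bound site.

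The muscle isoforms Eno3 and Pgam2 differed more between mice of a group than between groups and passed no test. Eno3 (ENSMUSG00000060600.15, chr11:70657202-70662513, plus strand) and Pgam2 (ENSMUSG00000020475.3, chr11:5801640-5803733, minus strand) encode the enolase and the phosphoglycerate mutase of mature muscle. Eno3 was 9.60, 10.7, 25.5, 53.8, 8.27, 8.28 and 186 CPM in control mice and 45.2, 24.1, 8.21, 8.02, 51.2, 37.8 and 57.0 CPM in mice labelled FAKO at 29 °C. After cold it was 152, 20.2, 2.15, 22.9 and 55.1 CPM in control mice and 76.9, 3.87, 103, 223, 4.94, 3.04 and 28.0 CPM in mice labelled FAKO. The temperatures overlapped in both genotypes, and the log2 fold changes with cold were 0.21 (SE 0.96, edgeR adjusted p = 0.855) and 0.93 (SE 0.88, edgeR adjusted p = 0.356). Pgam2 ranged from 1.08 to 51.1 (median 2.43) and 0.698 to 15.2 (median 9.97) CPM at 29 °C and from 0.987 to 42.2 (median 6.34) and 0.787 to 65.2 (median 7.29) CPM at 5 °C in control mice and mice labelled FAKO, at 0.35 (SE 0.98, edgeR adjusted p = 0.77) and 1.15 (SE 0.91, edgeR adjusted p = 0.267). Eno1 ranged from 471 to 699 (median 527) and 406 to 509.8 (median 470.1) CPM at 29 °C and from 495 to 528 (median 504) and 464 to 706 (median 595) CPM after cold, in control mice and mice labelled FAKO.

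The spread of the muscle isoforms ran alongside that of muscle fibre markers. Ckm, the creatine kinase of muscle, was between 0 and 752 CPM over the 26 mice. In control mice at 29 °C and in both cold groups, the mouse with the highest Ckm (mice 7, 16 and 25) also had the highest Eno3, Pgam2 and Pfkm. At 29 °C in mice labelled FAKO, Ckm was highest in mouse 12, Eno3 and Pgam2 in mouse 14 and Pfkm in mouse 8. Acta1, Mylpf and Myh4, the actin and myosins of fast fibres, varied in the same way, from 0.129 to 934 CPM, from 0.215 to 215 CPM and from 0.172 to 2099 CPM among cold control mice alone. No marker of the 20 was at 0 in all mice of a group. Over the 26 mice, each taken as its deviation from its group mean in log2 CPM, the genes most like Eno3 were Pygm (r = 0.994), Pdlim3 (0.992) and Mybpc2 (0.991), those most like Pgam2 were Aqp4 (0.988), Tpm2 (0.984) and Eno3 (0.983), and those most like Pfkm were Dmd (0.969), Hspb6 (0.958) and Tacc2 (0.958). Within the 7 control mice at 29 °C, Eno3 and the mean log2 CPM of the 20 markers went together (Pearson r = 0.958, exact permutation p = 0.00139, adjusted p = 0.0302, and Spearman rho = 0.893, exact permutation p = 0.0123, adjusted p = 0.153, each adjusted over the 87 relations of 29 genes in 3 groups), and r was 0.908 without the 2 mice farthest from the median. For Pgam2 the values were Pearson r = 0.939, exact permutation p = 0.00198, adjusted p = 0.0345, and Spearman rho = 0.821, exact permutation p = 0.0341, adjusted p = 0.27, and r was 0.768 without those mice. For Pfkm they were Pearson r = 0.792, exact permutation p = 0.0147, adjusted p = 0.124, and Spearman rho = 0.750, exact permutation p = 0.0663, adjusted p = 0.339, and r was 0.0335 without those mice, so that in this group the relation rested on them. Among the 7 cold mice labelled FAKO, Eno3 gave Pearson r = 0.964, exact permutation p = 0.000397, adjusted p = 0.0173, and Spearman rho = 0.964, exact permutation p = 0.00278, adjusted p = 0.0604, and r was 0.999 without the 2 mice farthest from their median. Pgam2 gave Pearson r = 0.945, exact permutation p = 0.00298, adjusted p = 0.0432, and Spearman rho = 0.893, exact permutation p = 0.0123, adjusted p = 0.153, and r was 0.998 without them. Pfkm gave Pearson r = 0.871, exact permutation p = 0.0157, adjusted p = 0.124, and Spearman rho = 0.893, exact permutation p = 0.0123, adjusted p = 0.153, and r was 0.945 without them, so there it did not rest on those mice. Only Eno3 and Pgam2 had a Pearson adjusted p below 0.05, but other genes had r as large as Pfkm. In this group Hk2 gave r = 0.876 (exact permutation, adjusted p = 0.124) and Slc16a1 gave -0.893 (adjusted p = 0.114). Without the 2 farthest mice these were 0.657 and -0.446. In control mice at 29 °C Hk2 gave 0.401, Slc16a1 -0.776 and Pfkfb4 0.857 (exact permutation, adjusted p = 0.0543). For Pfkfb4 r was 0.791 without the 2 farthest mice. At 29 °C, 2 mice labelled FAKO lay apart from the other 5 in muscle marker level, and no pooled r is given for that group. Without those 2 mice r was 0.978 for Eno3, 0.930 for Pgam2 and 0.882 for Pfkm. In the cold mice labelled FAKO, mice 23 and 27 also lay low, at -1.23 and -1.16 in mean log2 CPM of the markers. The next lowest of that group was mouse 26, at 2.47.

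**Figure D4:**
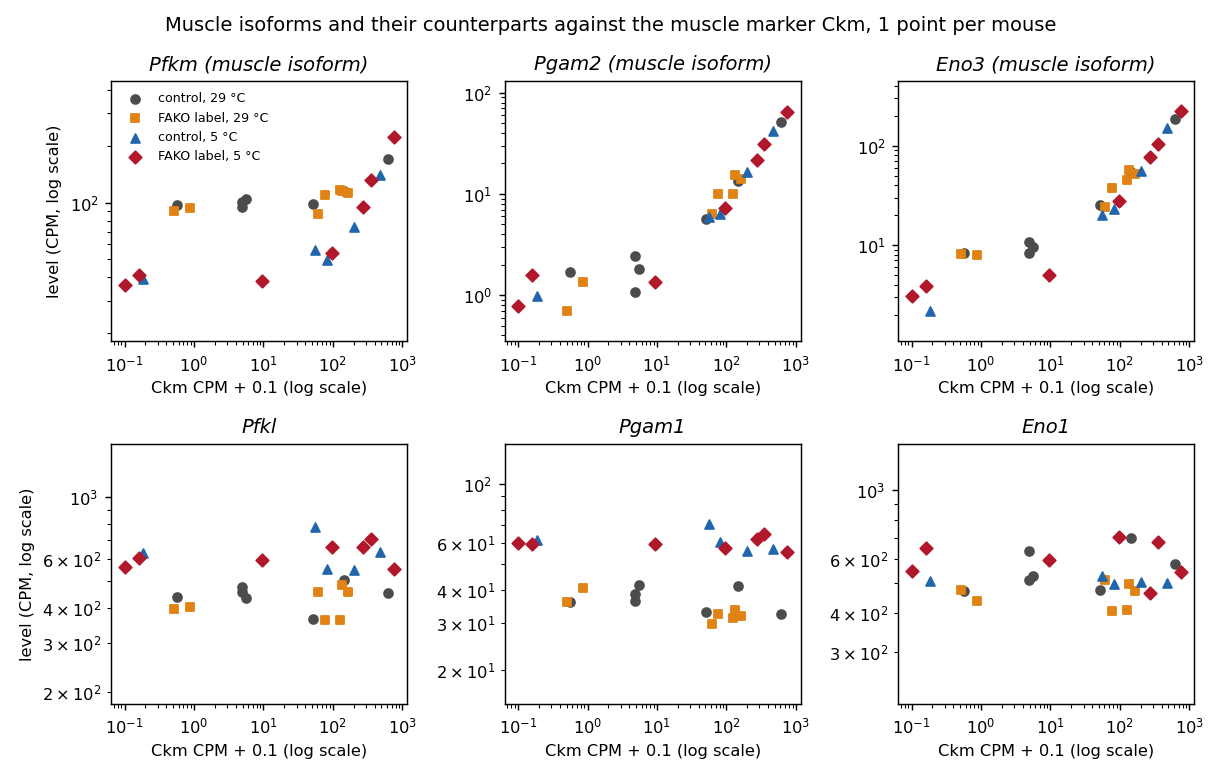
Level (CPM, log scale, y axis) of the muscle isoforms Pfkm, Pgam2 and Eno3 (top) and of Pfkl, Pgam1 and Eno1 (bottom) against the muscle marker Ckm (CPM with 0.1 added, log scale, x axis), with 1 point per mouse and a symbol for each of the 4 groups. The mice with the most Ckm in 3 of the groups are also the highest for all 3 muscle isoforms, and in the 6 mice with Ckm under 1 CPM Pfkm lies between 90.6 and 97.5 CPM at 29 °C and between 36.3 and 41.2 CPM at 5 °C.

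Pfkm (ENSMUSG00000033065.13, chr15:98092589-98132451, plus strand), which encodes the muscle-type phosphofructokinase, passed in neither genotype over all mice, but its fall was called once mice with much muscle marker were set aside. It was 104, 100.4, 98.0, 115, 97.5, 94.3 and 171 CPM in control mice and 117, 86.5, 90.6, 93.1, 113, 109.7 and 115 CPM in mice labelled FAKO at 29 °C. After cold it was 140.03, 55.6, 39.3, 49.3 and 74.4 CPM and 95.04, 41.2, 133, 223, 37.9, 36.3 and 53.6 CPM. Of the 12 cold mice, 8 were below all mice at 29 °C, and the other 4 (mice 16, 22, 24 and 25) were the 4 cold mice with the highest Ckm, and the log2 fold changes were -0.64 (SE 0.36, edgeR adjusted p = 0.125) and -0.23 (SE 0.33, edgeR adjusted p = 0.547). With the mean log2 CPM of the muscle markers as a covariate they were -0.91 (SE 0.24, edgeR adjusted p = 0.00184) and -0.48 (SE 0.22, edgeR adjusted p = 0.0509). Without the 10 mice with Ckm above 100 CPM, a choice made after seeing the data, they were -1.06 (SE 0.13, edgeR adjusted p = 1.54e-06) and -1.19 (SE 0.12, edgeR adjusted p = 2.23e-07). Leaving out cold mouse 16 alone, or cold mouse 25 in mice labelled FAKO, also brought the fall past the threshold (adjusted p down to 0.0174 and 0.0404). In the 6 mice with Ckm under 1 CPM, Pfkm was 97.5, 90.6 and 93.1 CPM at 29 °C and 39.3, 41.2 and 36.3 CPM at 5 °C. In the same mice Eno3 was 8.27, 8.21 and 8.02 CPM at 29 °C and 2.15, 3.87 and 3.04 CPM at 5 °C, and Pgam2 was 1.70, 0.698 and 1.36 and 0.987, 1.57 and 0.787 CPM. These 6 mice were picked by Ckm and come from 4 groups, so they are given without a test.

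The log2 ratio of counts of each muscle isoform to its counterpart was compared between groups by exact permutation over mice, in 12 tests. The Pfkm to Pfkl ratio was -2.02 ± 0.30 in control mice at 29 °C and -3.27 ± 0.74 at 5 °C, a difference of -1.25 (two-sided exact test over all permutations, p = 0.00379, adjusted p = 0.0455 over the 12 tests). This adjusted p was above 0.05 when any mouse but cold mouse 16 was left out, with differences of -1.35 to -1.07. The ratio in mice labelled FAKO shifted by -1.13 (two-sided exact test over all permutations, p = 0.0239, adjusted p = 0.143 over the 12 tests), and it passed without cold mouse 25, at -1.43. None of the other 10 tests passed (exact permutation tests, adjusted p = 0.956 for each). The Eno3 to Eno1 ratio was -4.71 ± 1.64 and -4.39 ± 2.28 in control mice at 29 and 5 °C, and the Pgam2 to Pgam1 ratio was -3.06 ± 2.03 and -2.99 ± 2.07.

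The label itself moved none of these genes past the threshold. At 29 °C, 0 of the 29 tested genes passed edgeR's test, beside 0.0810% of all genes (0.0579% higher and 0.0231% lower). An unadjusted p under 0.05 was found for 6 of the 29, beside 1322 of all 17286 genes. DESeq2 also called 0. Over all genes 10 were higher and 4 lower, and with library size alone 34 were higher and 0 lower. Without mouse 7 the share of all genes was 0.541% (62 higher and 31 lower), and still 0 of the 29 passed. Set against control mice, mice labelled FAKO had a median log2 difference of -0.11, beside -0.02 over all genes, and 5 of the 29 values were positive. At 5 °C, 0 of the 29 passed, beside 0.139% of all genes (0.0463% higher and 0.0926% lower), while DESeq2 called 1, Fbp2. An unadjusted p under 0.05 was found for 8, beside 2323 of all 17286 genes. Over all genes 8 were higher and 16 lower, and with library size alone 4 were higher and 1 lower. Without mouse 22 the share was 0.579% (62 higher and 38 lower). There the median was 0.19, beside 0.02 over all genes, and 22 of the 29 values were positive. The lowest adjusted p at 29 °C was that of Gapdh, at 232 ± 34.8 CPM in control mice and 189 ± 14.7 CPM in mice labelled FAKO, a log2 difference of -0.30 (SE 0.09, edgeR adjusted p = 0.291). At 5 °C it was that of Fbp2, at 0.62 (SE 0.16, edgeR adjusted p = 0.106), which was called when mouse 22 was left out (adjusted p = 0.0415). The groups overlapped for all 29 genes at both temperatures, whereas 0.174% of all genes were higher and 0.0752% lower without overlap at 29 °C, and 0.330% and 0.781% at 5 °C.

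The difference of the cold responses between genotypes was tested directly, and 3 of the 29 genes passed, Fbp2, Tpi1 and Pkm, each with the larger value in mice labelled FAKO. Of all genes 1.16% passed (0.289% with the larger and 0.868% with the smaller value in mice labelled FAKO). An unadjusted p under 0.05 was found for 10 of the 29, beside 2804 of all 17286 genes. For Fbp2 the difference was 0.84 (SE 0.21, edgeR adjusted p = 0.0483), for Pkm 0.51 (SE 0.12, edgeR adjusted p = 0.0408) and for Tpi1 0.36 (SE 0.09, edgeR adjusted p = 0.0388). Gapdh, Eno1 and Gpi1 came next without passing, at 0.49 (SE 0.13, edgeR adjusted p = 0.053), 0.52 (SE 0.13, edgeR adjusted p = 0.0523) and 0.41 (SE 0.12, edgeR adjusted p = 0.0875). The median difference over the 29 genes was 0.30, beside 0.04 over all genes, and 24 of the 29 values were positive. Each of these differences is built from lower values at 29 °C and higher values at 5 °C in mice labelled FAKO. Pkm was 1213 ± 131 and 1022 ± 80.0 CPM at 29 °C and 1106 ± 48.3 and 1325 ± 207 CPM at 5 °C in control mice and mice labelled FAKO, and Tpi1 was 328 ± 16.8, 294 ± 11.5, 392 ± 24.5 and 452 ± 50.4 CPM in the same order. Mouse 28 was the highest of the 7 cold mice labelled FAKO for all 6 of these genes.

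The 3 calls were close to the threshold. That of Fbp2 was lost in 21 of the 26 fits without 1 mouse and held without mouse 7, 14, 22, 25 or 27. The call of Tpi1 was lost in 17 and held without mouse 3, 7, 12, 16, 22, 23, 26, 27 or 28, and that of Pkm was lost in 16 and held without mouse 3, 5, 7, 9, 12, 22, 25, 26, 27 or 28. All 3 were lost with library size alone (where the 278 genes of all that passed had the smaller value in mice labelled FAKO, beside 150 of 200 with TMM), without a filter on low counts and without the mice with Ckm above 100 CPM, while DESeq2 called 6 of the 29.

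**Figure D5:**
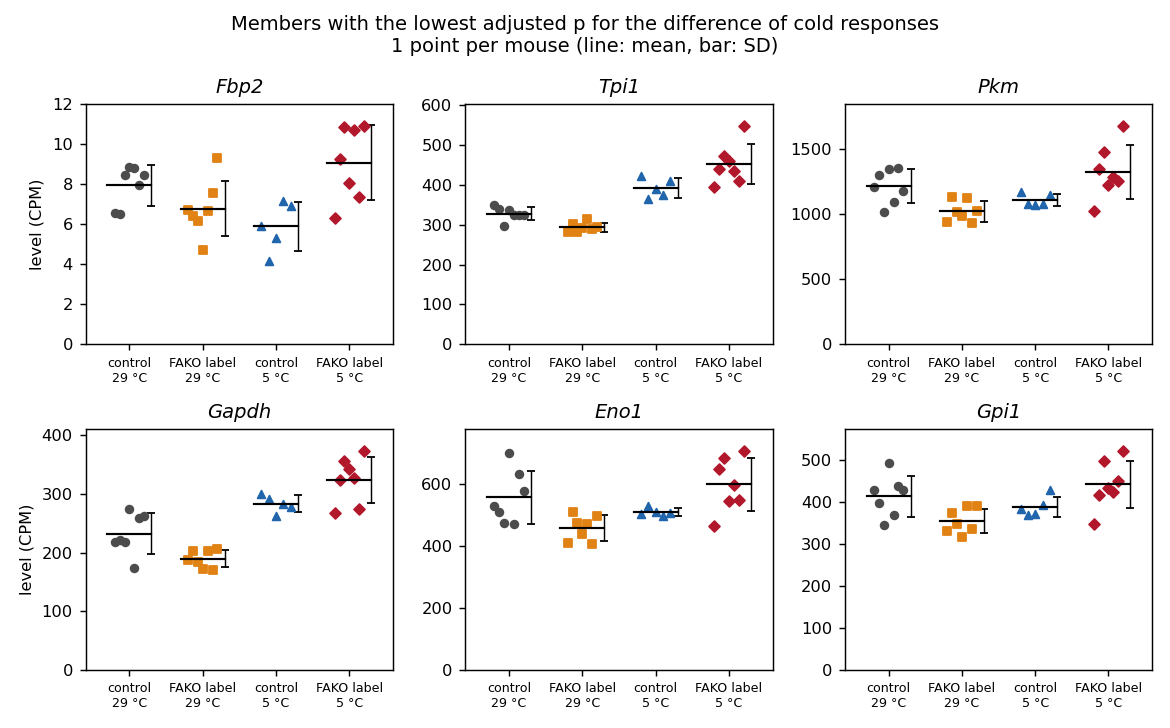
Level (CPM, y axis) of the 6 genes with the lowest adjusted p for the difference of the cold responses, in each of the 4 groups (x axis), with 1 point per mouse, a line for the mean and a bar for the SD. In each panel the mean of mice labelled FAKO lies below that of control mice at 29 °C and above it at 5 °C, and the groups of both labels overlap at both temperatures.

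Among 43 other genes of glucose and lactate handling, 36 were tested. With cold, 7 rose and 13 fell in control mice, where 31.6% of all genes rose and 33.4% fell. In mice labelled FAKO 12 rose and 12 fell, beside 33.7% and 34.9% of all genes. None of the 36 passed for the label at either temperature or for the difference of the cold responses. Their median log2 fold changes were -0.17 and -0.12, beside -0.01 and -0.03 over all genes. The largest fall was that of Slc2a5, the fructose transporter, from 23.4 ± 13.4 to 0.867 ± 0.726 CPM in control mice, at -4.68 (SE 0.60, edgeR adjusted p = 1.35e-07), and at -2.50 (SE 0.47, edgeR adjusted p = 3.70e-05) in mice labelled FAKO. Slc37a4, the glucose phosphate carrier of the endoplasmic reticulum, fell by 1.93 (SE 0.19, edgeR adjusted p = 1.10e-09) and 1.61 (SE 0.17, edgeR adjusted p = 2.59e-09) on the log2 scale. Slc16a7, which encodes MCT2, a carrier of the same family as MCT1, fell from 32.4 ± 4.43 to 10.1 ± 1.24 CPM, at -1.68 (SE 0.12, edgeR adjusted p = 4.35e-12), and at -2.05 (SE 0.11, edgeR adjusted p = 8.29e-15) in mice labelled FAKO. Partner proteins of these carriers rose. Bsg, which brings MCT1 and MCT4 to the membrane, was at 0.48 (SE 0.08, edgeR adjusted p = 7.30e-06) and 0.75 (SE 0.07, edgeR adjusted p = 1.11e-09), and Emb, the partner of MCT2, at 1.29 (SE 0.22, edgeR adjusted p = 1.45e-05) and 1.80 (SE 0.21, edgeR adjusted p = 2.30e-08), although Emb stayed at 5.30 ± 0.951 CPM in cold control mice. Of the lactate dehydrogenases, Ldhb, the heart form, rose in both genotypes, at 0.50 (SE 0.08, edgeR adjusted p = 9.33e-06) and 0.56 (SE 0.08, edgeR adjusted p = 3.98e-07). Ldha, the muscle form, was at -0.02 (SE 0.13, edgeR adjusted p = 0.878) in control mice and rose in mice labelled FAKO, at 0.59 (SE 0.12, edgeR adjusted p = 7.75e-05).

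Of the regulators, Hif1a, the oxygen-regulated subunit of a factor that drives glycolytic genes, rose by 1.00 (SE 0.14, edgeR adjusted p = 6.90e-07) and 1.25 (SE 0.13, edgeR adjusted p = 3.49e-09). Mlxipl, the carbohydrate response factor ChREBP, fell from 156 ± 33.7 to 66.3 ± 9.77 CPM, at -1.23 (SE 0.13, edgeR adjusted p = 2.98e-09), and at -1.16 (SE 0.11, edgeR adjusted p = 9.55e-10) in mice labelled FAKO. Txnip, an inhibitor of glucose uptake and a target of ChREBP, spread widely and passed in neither genotype, at -0.18 (SE 0.32, edgeR adjusted p = 0.635) and 0.30 (SE 0.30, edgeR adjusted p = 0.374). Myc rose in mice labelled FAKO, at 1.61 (SE 0.38, edgeR adjusted p = 0.000576), where its levels ran from 5.02 to 49.9 (median 14.2) CPM at 5 °C, and was at 0.71 (SE 0.41, edgeR adjusted p = 0.131) in control mice.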

How the data were processed

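Brown adipose tissue RNA from 26 mice, labelled supraclavicular, was sequenced after ribosomal RNA removal as 100-base single-end reads. The authors aligned reads to mm10 with STAR 2.5.2b and deposited raw counts per gene, made with featureCounts 1.5.2 on GENCODE annotation, with their own testing in edgeR 3.22.0. Strand and multi-mapping settings of the counting are not given in the sources used here. Each mouse was grouped by its labels. Counts were analysed here with edgeR 4.0.16 in R 4.3.3 (TMM factors, filterByExpr, quasi-likelihood F-test on all 4 groups). Log2 CPM had a prior count of 2, and fold changes had edgeR's default. P-values of 17286 genes were adjusted together, with a threshold of 0.05. DESeq2 1.42.0, library size alone, other filters, edgeR's revised method, fits of only the groups compared, a muscle marker covariate and leaving out each mouse were alternatives. The scripts were tested on simulated data. Ratios had 0.5 count added and were compared by exact permutation tests written with numpy 2.4.6, and ranks came from scipy 1.17.1. All members were named, with preset examples and the 3 largest called rises and falls of the other pathway genes at 1 CPM or more. Des and Ly6g were named after their values were seen. The members and lists were chosen with earlier results of these data known. Total counts of 12705969 to 25732258 limit the precision for genes of a few CPM.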

Additional observations from a re-analysis of the deposited data

Results flagged for a closer look

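In 10 of the 116 sets of 4 to 10 mice examined (each tested gene in each group), the highest or lowest mouse stood apart from the others by Dixon's criterion, which chance meets in about 1 of 20 sets. Of these, 6 were control mouse 7 at 29 °C, the mouse of that group with the highest Ckm, at 618 CPM. It was the highest for Eno3 (186 CPM), Pfkm (171 CPM), Pgam2 (51.1 CPM), Bpgm (31.3 CPM), Pfkfb4 (14.4 CPM) and Slc16a3 (5.92 CPM). Among cold mice labelled FAKO, mouse 27 was the highest for Slc2a1 (36.1 CPM) and Hk3 (8.44 CPM), and mouse 28 was the highest for Aldoa (5059 CPM). Cold control mouse 17 was the lowest for Pfkfb1 (13.6 CPM).

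The cold responses of 3 genes differed between genotypes by edgeR's test of the difference, with larger log2 fold changes in mice labelled FAKO. The difference was 0.84 for Fbp2, 0.51 for Pkm and 0.36 for Tpi1.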

How the results depend on the processing

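No paired analysis was possible because the replicate numbers in the labels are not shared between groups. The counts of genes called with cold in control mice stayed within 1.5 times under all alternatives run, as did those in mice labelled FAKO, except that library size alone left 12 of the 20 rises there and turned Gpi1 and Bpgm to log2 fold changes of -0.00811 and -0.032, against a median of -0.34 over all genes. For the label after cold, DESeq2 called 1 gene, which was higher, and the fits without 1 mouse called 0 to 1. For the difference of the cold responses, the 3 calls became 6 with DESeq2, 5 with edgeR's revised method, and 0 with library size alone, without a filter on low counts and without the mice with Ckm above 100 CPM (chosen after seeing the data). Without 1 mouse they ranged from 0 to 6. The fall of the Pfkm to Pfkl ratio in control mice was -1.37 between medians of the mice, past the threshold no longer, and ranged from -1.52 to -1.07 without 1 mouse. In mice labelled FAKO it ranged from -0.985 to -1.43. The causes of these shifts were not tested. Over all genes, the 14 calls for the label at 29 °C became 40 with DESeq2, 34 with library size alone, 9 without a filter, 93 without mouse 7 and 7 to 9 without mouse 2, 3, 6 or 13. The 24 calls after cold became 162 with DESeq2, 5 with library size alone, 15 without a filter, 45 with at least 10 counts in every mouse, 9 with only the groups compared, 5 without the mice with Ckm above 100 CPM, 100 without mouse 22 and 7 to 15 without mouse 17, 18, 19, 21, 24, 25 or 27. The 200 calls for the difference became 434 with DESeq2, 27 without a filter, 31 without those mice, 371 without mouse 7, 302 without mouse 22 and 49 to 121 without mouse 2, 4, 6, 8, 10, 11, 16, 17, 18, 19, 21 or 24. Genes of a few CPM, such as Eno2 and Hk3, rest on few counts per mouse.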
